A study of Mus musculus with 2 samples.

Results

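Cluster 7 was a group of epithelial cells led by *Lce3a*, a late cornified envelope gene, with high summed levels of superficial markers such as *Psca*. Of its 528 cells in the wounded library, 175 were low in *Lce3a* and in the corneal keratin *Krt12*. Its members were the cells that carry the number 7 in the deposited clustering of both libraries together, 2039 of 28867 cells. They made up 1511 of the 16450 cells of the unwounded library (UW), or 9.19% (exact Clopper-Pearson 95% interval 8.75 to 9.64). In the wounded library (W) they were 528 of 12417 cells, or 4.25% (3.9 to 4.62). Counted among the 10 epithelial clusters alone, the UW share was 11.2% (10.7 to 11.7) and the W share 6.21% (5.70 to 6.74). The intervals of UW and W did not overlap, but they cover counting error only.

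The study dissociated mouse corneas and sequenced their cells on the 10x Genomics droplet platform. UW pooled the corneas of 4 unwounded mice, and W pooled those of 4 mice collected 24 h after the central epithelium had been scraped over 2.5 mm. The mice were males of 6 to 8 weeks without any gene alteration named, and their strain was not given. Each condition was 1 library. The study assigned cells to mice from their genotypes, but that assignment was not used here, so no difference between UW and W was set against a spread between animals and no test was made; wounding and every other difference between the 2 pools cannot be told apart.

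The corneal epithelium is stratified. Cells divide in the basal layer, move upward through wing cells and end as flat superficial cells, which carry membrane mucins and tight junctions, meet the tear film and are then shed. In epidermis the last steps of this path build a cornified envelope from loricrin, small proline-rich and late cornified envelope proteins, while the cornea normally stays uncornified. Wounding of stratified epithelia is known to raise stress keratins, S100 alarmins and small proline-rich proteins.

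The label was held against markers of each corneal cell type. The superficial genes *Muc4* (a membrane mucin), *Upk1b* (a uroplakin) and *Psca* (a GPI-anchored surface protein) each had their highest epithelial level in cluster 7 in both libraries. Other superficial markers did not. In UW cluster 6 exceeded cluster 7 for *Lypd2* (18520.3 against 16351.9 CPM), *Krt78* (373.9 against 222.9 CPM) and *Omp* (62.9 against 44.7 CPM). In W it did so for *Lypd2* (8215 against 6391 CPM). The membrane mucin gene *Muc16* stood at 0 CPM in UW and 0.67 CPM in W, and no epithelial cluster exceeded 1.42 CPM of it. *Psca* stood at 39969.6 CPM (counts of a gene per 1000000 UMIs of the cluster in that library) in UW and 21621.5 CPM in W. Of the basal genes, the integrin *Itgb4* stood at 3.25 and 8.71 CPM and *Col17a1* at 34.3 and 52.1 CPM. The keratins *Krt5* (875.1 and 1551 CPM), *Krt14* (48.4 and 1188 CPM) and *Krt15* (902.6 and 4628 CPM) were more abundant. None of these basal genes was highest in cluster 7. The goblet cell mucin *Muc5ac* had no count in either library, which allows up to 0.102 CPM in UW and 0.309 CPM in W (exact Poisson). *Ptprc*, which marks all leukocytes, stood at 0.248 and 0.586 CPM, and the stromal proteoglycan gene *Kera* at 22.1 and 15 CPM against 7482 and 2537 CPM in the stromal cluster 0. *Krt12*, the keratin that marks corneal epithelium, had a UMI in 100% of UW and 99.8% of W cells, but its level of 5299 CPM in UW and 7216 CPM in W lay below the 29378 and 12622 CPM of the other epithelial clusters summed. The conjunctival keratins *Krt19* and *Krt4* were highest in cluster 5. Cluster 7 ranked 2 among the epithelial clusters for *Krt19* in both libraries (171.4 CPM in UW and 1058 CPM in W). *Krt4* stood at 74.4 and 615.5 CPM and *Krt13* at 3764 and 10350 CPM, each at rank 2 in W. The summed markers were thus mostly those of superficial epithelium, shared with cluster 6, with a low level of *Krt12* and with conjunctival keratins that were higher in W. Across 7360 genes, the cluster most like it by Pearson's r of log2(CPM + 1) was cluster 6 (0.933 in UW and 0.954 in W), followed by cluster 2 (0.813 and 0.880).

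The sums over cluster 7 held 36292611 UMIs in UW and 11946337 in W, with medians of 23636 and 21232.5 UMIs and of 2645 and 2617 genes per cell. Transcripts were concentrated on few genes: the 10 most abundant took 38.0% of the UW and 33.4% of the W UMIs, more than in any other epithelial cluster. When each cell was thinned to 2000 UMIs, a median of 645 genes remained in UW and 663.5 in W, against 790 and 780 in cluster 6, the next lowest. The median share of UMIs from ribosomal protein genes was likewise the lowest of these clusters, at 2.41% and 4.42%. The libraries shared 52 barcodes, which touched 7 cells of cluster 7. Free RNA, estimated from 6 stromal genes, made up about 4.18% of the UMIs of cluster 7 in UW and 5.56% in W.

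The 5 genes that named the cluster are of several kinds. *Lce3a* and *Crct1* (a cysteine-rich protein gene) lie near each other in the epidermal differentiation complex of chromosome 3, where *Lce3a* spans chr3:92925287-92926230 and *Crct1* spans chr3:93014205-93015687 on the minus strand of GRCm38. *S100a7a*, a psoriasin-type S100 gene, is in a neighbouring part of the same chromosome, at chr3:90654017-90658669 on the plus strand. *Krt23* is a type I keratin gene on chromosome 11, and *Chac1* encodes a glutathione-degrading enzyme that the integrated stress response induces.

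*Lce3a* stood at 2480.0 CPM (95% Poisson interval 2464 to 2496) in UW and 2181 CPM (2155 to 2208) in W. The next epithelial cluster, cluster 6, held 27.4 and 68.3 CPM of it. *Chac1* reached 948.5 CPM (938.5 to 958.6) in UW and 727.6 CPM (712.4 to 743.0) in W, against 110.1 and 205.8 CPM in cluster 6. *S100a7a*, *Krt23* and *Crct1* followed the same pattern at 666.2, 409.8 and 355.7 CPM in UW and 758.2, 322.2 and 546.7 CPM in W. Each marker was thus highest in cluster 7 in both libraries, and none lay 2-fold apart between UW and W. These levels helped to define the cluster and are given as a description.

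**Figure D1:**
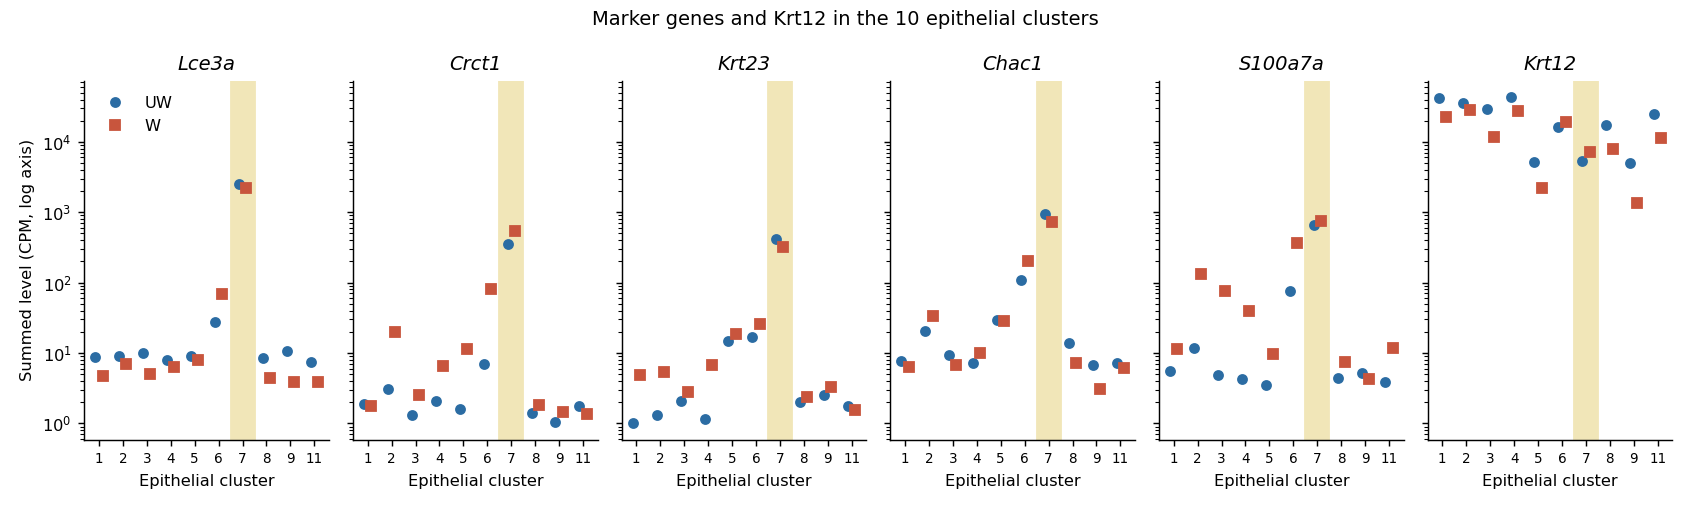
Summed levels (CPM, log axis) of the 5 marker genes and of Krt12 in each of the 10 epithelial clusters, with circles for UW, squares for W and cluster 7 shaded. Each marker peaks in cluster 7 in both libraries with cluster 6 next in each case (Lce3a at 2480.0 CPM against 27.4 CPM in UW), while Krt12 in cluster 7 lies below its level in most clusters.

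The markers were far from uniform among the cells. *Lce3a* had no UMI in 578 of the 1511 UW cells and 203 of the 528 W cells, while its highest cells held 1588 and 1019 UMIs. Its median was 1 UMI in UW and 2 in W, so that cells with much of it were a minority: the 75th percentile was at 37 UMIs in UW and 29 in W. *Crct1* was concentrated in the same manner, with a UMI in 25.6% of UW and 46.4% of W cells. *Chac1* was broad, with a UMI in 96.9% and 96.6% of cells and a median of 18 and 13 UMIs. A UMI of every marker was seen in 14.8% of the UW cells against 25% in W, and a UMI of none in 6 and 2 cells. At an equal depth of 2000 UMIs, *Lce3a* was detected in 40.4% of UW and 42.4% of W cells, against 1.87% and 1.16% of the stromal cells of cluster 0, which should lack it.

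A broad transcript of a different kind was *Itgam*, the integrin αM subunit used as a marker of myeloid cells. It had a UMI in 1504 of 1511 UW cells (99.5%, 99.0 to 99.8) with a median of 10 UMIs, and in 491 of 528 W cells (93.0%, 90.5 to 95) with a median of 4. Its level was 465.6 CPM (458.6 to 472.7) in UW and 228.5 CPM (220.0 to 237.3) in W, while cluster 6 held 144.4 and 116.7 CPM. In UW *Itgam* thus had a UMI in more of the cells than any of the 5 markers, and its level in W was at the edge of 2-fold lower (log2 ratio -1.03, and -0.98 as the mean over cells of each cell's CPM). A UMI of *Ptprc*, *Tyrobp* or *Fcer1g*, genes that leukocytes express, was present in 11 UW and 90 W cells, and of the cells with *Itgam* only 11 and 87 had one.

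By the rule for leading genes, 25 genes stood out most from the other epithelial clusters in both libraries. Beyond the 5 markers these were *Clca3b*, *Il4i1*, *Plekhs1*, *Slc39a4*, *Ltf*, *Alpl*, *AA467197*, *Asb11*, *Clic5*, *Vnn1*, *Gbp4*, *Tnf*, *Smpdl3b*, *Cnfn*, *Il1f6*, *Slc13a2*, *Prss8*, *Plpp1*, *Naip1* and *Sdcbp2*. Several encode proteins of the cell surface or secretions: *Ltf* is lactoferrin, an antimicrobial protein of tears, *Alpl* is alkaline phosphatase, *Slc39a4* is a zinc importer, and *Prss8* is a membrane-anchored protease of epithelia. *AA467197* was at 2588 CPM in UW and 3410.2 CPM in W against 60.9 and 112.1 CPM in the other epithelial clusters summed. *Il4i1*, an amino acid oxidase gene better known from immune cells, stood at 142.5 and 118.2 CPM against 1.69 and 1.10 CPM. *Clca3b*, of the calcium-activated chloride channel regulator family, stood at 126.9 and 143.6 CPM against 1.00 and 1.52 CPM. Of the 25 leading genes, *Cnfn*, *Il1f6* and *Ltf* were at least 2-fold higher in W, and *Tnf*, *Plpp1* and *Slc39a4* at least 2-fold lower; over all 3097 genes compared, 12.3% were higher and 7.43% lower. The log2 ratio of *Ltf* was 1.27, but 0.89 with trimmed-mean scaling and 0.51 within the larger groups described next.

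The deposited cell table holds another grouping, named as made without integration of the libraries and numbered within each. In UW, 1238 cells of cluster 7 (81.9%) formed its group 5, which held 1240 cells in all, and 270 (17.9%) fell in group 3, in which 68.2% of the cells were of cluster 6. In W, 353 cells (66.9%) fell in group 7, together with most of cluster 6, and 175 (33.1%) in group 3, in which 81.7% of the cells were of cluster 5. The same number thus stands for different cells in UW and W. Cluster 5 is the epithelial cluster richest in *Krt15*, *Krt4* and *Krt19*, keratins of limbal and conjunctival epithelium.

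The 4 groups differed in the genes that name the cluster. *Lce3a* stood at 3044 CPM in the 1238 UW cells and 3263 CPM in the 353 W cells, and at 180.6 and 103.2 CPM in the respective group 3 cells. *Crct1* was at 440.1 and 798.5 CPM in the larger groups and at 12.3 and 62.6 CPM in the smaller. *Chac1* was less divided, at 1065 and 798.9 CPM against 481.0 and 590.5 CPM. *Krt23* was higher in the larger group of UW (476.9 against 141.9 CPM) but lower in that of W (282.8 against 398.0 CPM), where 85.1% of the group 3 cells and 58.1% of the others had a UMI of it. The *Lce3a* and *Crct1* levels of cluster 7 therefore rested on the larger group of each library.

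In W the group 3 cells also carried other keratins. *Krt4* was at 1520.5 CPM in these 175 cells against 144.7 CPM in the other 353, *Krt19* at 2344 against 388.5 CPM and *Krt7*, a keratin of simple and transitional epithelium, at 3577 against 605.4 CPM. *Krt12* was at 1295 CPM against 10295.5 CPM, and *Lypd2*, a GPI-anchored surface protein gene abundant in corneal epithelium, at 620.6 against 9394 CPM. The median cell held 14 UMIs of *Krt12* and 41 of *Krt19* in this group, against 136 and 2 in the 353. The UW group 3 cells did not share this: they held 50.1 CPM of *Krt4*, 96.3 CPM of *Krt19* and 8077 CPM of *Krt12*. So cluster 7 of W held, for 33.1% of its cells, a *Krt4*-, *Krt19*- and *Krt7*-rich and *Krt12*-poor population without a counterpart of that size in UW. Both groupings were made from these same genes, which makes this a description; comparisons named below that lost or changed their call are given again for the larger groups alone. Among genes within 2-fold over the cluster, *Slc13a2* went from -0.67 to -2.79 within the larger groups, *Slpi*, a secreted protease inhibitor gene, from -0.18 to -1.80, and *Muc1*, a membrane mucin gene, turned from 0.85 to -0.80. In each the W group 3 cells held the higher level, 210.1, 262.2 and 554.8 CPM against 22.7, 44.5 and 90.0 CPM in the other 353.

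**Figure D2:**
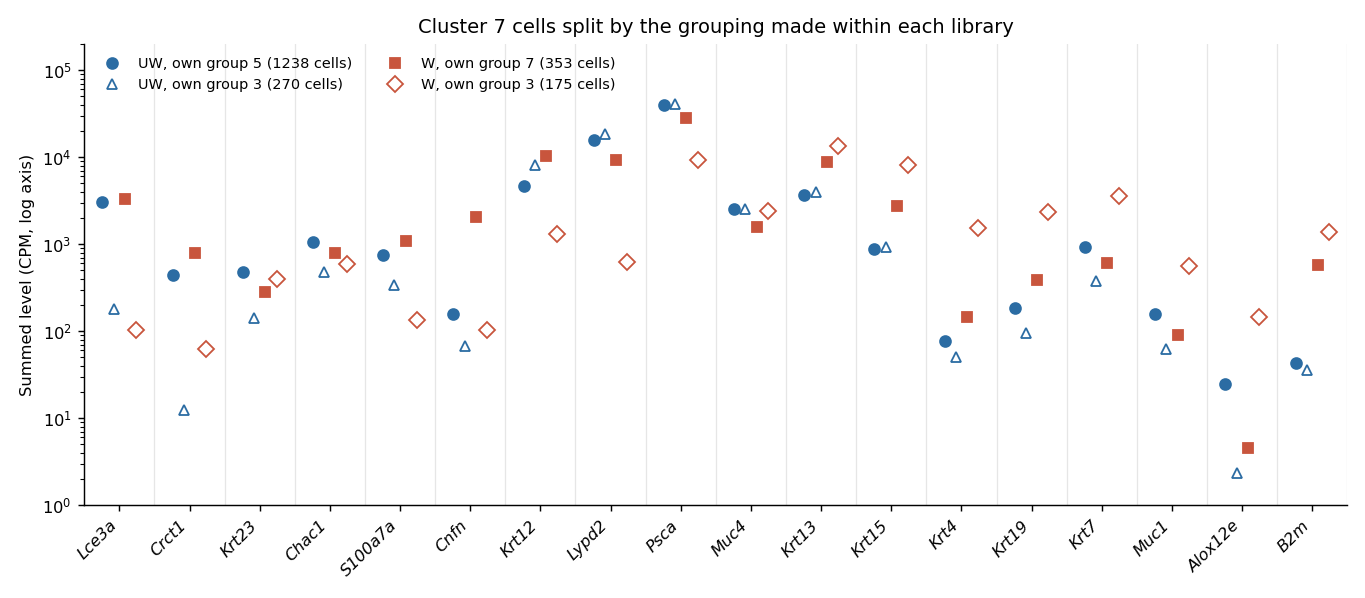
Summed levels (CPM, log axis) of 18 genes in the cells of cluster 7, split by the grouping made within each library, with filled symbols for the larger groups and open symbols for the group 3 cells of UW (triangles) and W (diamonds). The W group 3 cells are low in Lce3a (103.2 CPM) and Krt12 (1295 CPM) and high in Krt4 (1520.5 CPM), Krt19 (2344 CPM) and Krt7 (3577 CPM).

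To compare W with UW, counts were summed over the cluster in each library and scaled to CPM, and 3097 genes had a mean of at least 20 CPM and at least 20 counts. Of these, 381 (12.3%) were at least 2-fold higher in W and 230 (7.43%) at least 2-fold lower, with a median log2 ratio of -0.03. With trimmed-mean scaling (TMM) the median moved to -0.42, and 209 genes were higher and 617 lower, so that the higher share of the calls went from 62.4% to 25.3%. With DESeq2 size factors the median was -0.45 and the higher share 23.7%. Ratios below are on the scale of total counts and are to be read against that shift. For the 127 named genes at 100 CPM or more in both libraries the 95% counting interval of the log2 ratio was at most 0.09 to either side, and for all 257 named genes past the filter at most 0.66. Among the cells of the larger groups alone, 384 genes were higher and 301 lower.

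**Figure D3:**
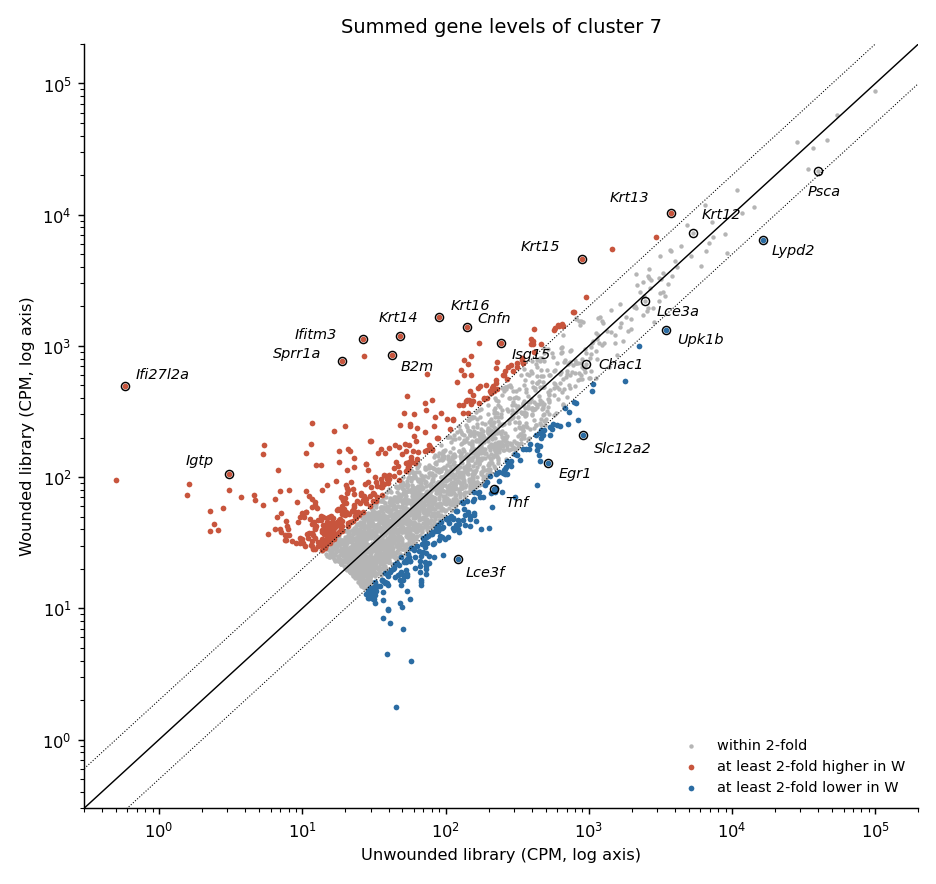
Summed level of each of the 3097 genes past the filter in cluster 7 of UW (x) and W (y), in CPM on log axes, with the line of equality, dotted lines at 2-fold, and the 381 higher genes in red and 230 lower genes in blue. The markers Lce3a and Chac1 lie within 2-fold, Ifi27l2a, Ifitm3, Krt16 and Sprr1a far above, and Lce3f, Egr1 and Slc12a2 below.

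The cornified envelope genes past the filter went both ways. Of 52 genes on the list 37 were in the table and 12 passed the filter. Of these, 3 were at least 2-fold higher and 3 lower, beside 12.3% and 7.43% of all genes. Their median was -0.22, but -0.60 with TMM and 0.10 within the larger groups. Without the filter, 15 of 31 were higher and 5 lower, with a median of 0.62, where the median of all genes was 0.55. *Cnfn*, which encodes cornifelin, went from 140.7 CPM in UW to 1394 CPM in W, a log2 ratio of 3.31 (95% counting interval 3.26 to 3.35). *Sprr1a*, a small proline-rich crosslinking substrate, went from 18.8 to 761.4 CPM (5.34, 5.23 to 5.45), and its relative *Sprr2f* from 3.06 to 79.4 CPM. Both *Cnfn* and *Sprr1a* were also higher within the larger groups, by log2 ratios of 3.70 and 5.59.

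The members of the Lce3 family did not move alike. *Lce3f* was at 122.7 CPM (119.1 to 126.4) in UW and 23.9 CPM (21.2 to 26.9) in W, and *Lce3b* at 94.5 and 34.8 CPM, while *Lce3a* (-0.19) and *Lce3c* (-0.47) lay within 2-fold. *Lce3f* was rare even in UW, where 3.85% of cells had a UMI at a depth of 2000 UMIs. These genes are close paralogs, and how reads were divided among them was not tested. *Scel*, the gene of sciellin, a precursor of the envelope, was at 431.3 CPM in UW and 160.6 CPM in W. The large scaffolds *Ppl* (-0.26) and *Evpl* (0.07), which tie the envelope to desmosomes, and the crosslinking enzyme *Tgm1* (-0.34) stayed within 2-fold. *Ivl* and *Lor*, classical epidermal envelope genes, did not pass the filter.

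Of 15 keratins past the filter 7 were at least 2-fold higher and 1 lower, beside 12.3% and 7.43% of all genes. Their median was 0.99, and 0.61 with TMM. *Krt16*, a stress keratin, was at 90.3 CPM in UW and 1647 CPM in W (4.19, 4.14 to 4.24). *Krt14*, the basal keratin, was at 48.4 and 1188 CPM, and *Krt17*, another stress keratin, at 11.7 and 257.1 CPM. *Krt15*, *Krt19*, *Krt13* and *Krt4* were higher by log2 ratios of 2.36, 2.63, 1.46 and 3.05. *Krt78*, a keratin of late differentiation, was at 222.9 CPM in UW and 76.8 CPM in W.

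Part of these keratin transcripts was at or near the level of free RNA. In W, *Krt14* was detected in 80.4% of cluster 7 cells thinned to 2000 UMIs and in 79.2% of the stromal cells, and in UW in 9.76% and 9.75%. The free RNA estimate for it was 525.6 of the 1188 CPM in W, so the share of cells with *Krt14* was read as background. With free RNA subtracted its ratio was 4.55, against 4.62. For *Krt16* the estimate was 221.2 of 1647 CPM and the shares 73.6% and 48.0%. For *Krt13* it was 156.0 of 10350.1 CPM and for *Krt4* 30.9 of 615.5 CPM. With free RNA subtracted, 9 of the 15 keratins were higher and 1 lower.

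The split by library groups bore on the same keratins. Within the larger groups *Krt4* had a log2 ratio of 0.91 and was no longer 2-fold apart, and *Krt19* had 1.05. *Krt7*, which was 0.99 over the whole cluster, was -0.61. *Krt16* kept 4.45, *Krt13* 1.24 and *Krt15* 1.63 there, and *Krt12* itself was 1.16, from 4612 CPM in the 1238 UW cells to 10295.5 CPM in the 353 W cells. The conjunctival and goblet list moved accordingly. Over the whole cluster 3 of its 4 genes past the filter were higher, beside 12.3% of all genes, with a median of 2.04. Within the larger groups 2 were higher, with a median of 0.98. Its goblet cell genes were all below the filter: *Muc5ac*, *Muc5b* and *Tff1* had no count in either library, while *Agr2* was at 0.220 CPM in UW and 3.85 CPM in W and *Spdef* at 1.35 and 6.53 CPM.

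Interferon-stimulated genes were higher in W as a group. Of 17 past the filter, 13 were at least 2-fold higher and none lower, beside 12.3% and 7.43% of all genes. The median log2 ratio was 2.13 against -0.03 over all genes. *Ifi27l2a*, one of the most strongly interferon-induced genes, had 0.579 CPM in UW and 492.8 CPM in W (9.73, 9.12 to 10.43), with a UMI in 1.32% of UW cells and 85.8% of W cells. At equal depth it was in 32.7% of W cells of the cluster and in 70.8% of the stromal cells, and the free RNA estimate was 44.0 of its 492.8 CPM. *Ifitm3*, which restricts entry of viruses, was at 26.5 and 1135 CPM (5.42, 5.32 to 5.51). *Isg15*, a ubiquitin-like modifier, was at 243.9 and 1055 CPM (2.11, 2.07 to 2.15). *Bst2*, *Usp18*, *Ifi44* and *Rsad2* were below 7 CPM in UW and between 54.7 and 151.1 CPM in W. *Ifit1*, *Ifit3* and *Ifit3b*, RNA-binding effectors with near-identical copies, were higher by log2 ratios of 2.57, 2.13 and 2.34, and *Irf9*, a transcription factor gene of interferon signalling, by 1.28. With TMM *Irf9* was at 0.90, and 11 of 17 genes of the list were at least 2-fold higher.

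Not every member was 2-fold apart. *Oasl1* (0.97), *Irf7* (0.39), *Oasl2* (0.17) and *Ifit1bl1* (-0.50) lay within 2-fold, and *Ifit1bl1* was already at 3408 CPM in UW. Within the larger groups 14 of 17 were higher and the median was 2.69. The group 3 cells of UW and W were closer in some of these genes: *Ifit1* was at 97.8 and 123.0 CPM there, against 40.1 and 402.8 CPM in the larger groups, and *Rsad2* at 17.0 and 13.2 CPM against 2.45 and 86.0 CPM. Others lay far apart in the group 3 cells too, with *Ifi27l2a* at 0.690 and 153.4 CPM and *Ifitm3* at 33.0 and 518.1 CPM. As the group 3 cells of the 2 libraries are of different kinds, these are values side by side. Outside the list, the interferon-inducible genes *Igtp* (5.10) and *Slfn4* (5.04) were among the 15 largest ratios, as was *B2m*, the light chain of MHC class I, at 42.0 CPM in UW and 850.4 CPM in W. *Aldh1a3*, of retinoic acid synthesis, was another of the 15, at 10.53 and 153.4 CPM. With free RNA subtracted, 13 of the 17 genes of the list were at least 2-fold higher.

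Promoters of these genes were searched for the interferon-stimulated response element, spelled GAAA, any 2 bases and GAAA again, and read on both strands, in the 300 bases from 250 before to 50 after each RefSeq start (GRCm38.p6). It was present in 9 of the 16 list genes with a promoter at hand (56.2%), against 3.99% of 27025 genes in all. Of the 10 of these that were at least 2-fold higher, 8 held it, and *Irf9* and *Ifi44* did not. A match is a description of the letters and not a site of binding. Windows of 30 bases are printed 5′ to 3′ on the strand of the gene, with the match in capitals, for 4 of these genes and for *B2m* and *Igtp*, whose levels are given above.
Isg15 (chr4:156200865-156200894, minus strand): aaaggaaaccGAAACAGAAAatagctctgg
Ifit1 (chr19:34640794-34640823, plus strand): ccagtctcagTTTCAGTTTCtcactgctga
Ifit3 (chr19:34583363-34583392, plus strand): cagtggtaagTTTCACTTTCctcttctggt
Bst2 (chr8:71537577-71537606, minus strand): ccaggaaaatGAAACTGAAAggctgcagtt
B2m (chr2:122147538-122147567, plus strand): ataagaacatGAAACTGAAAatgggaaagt
Igtp (chr11:58199512-58199541, plus strand): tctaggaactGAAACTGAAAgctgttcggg
Further matches in the promoters of *Isg15*, *Bst2*, *Ifit1* and *Ifit3* are not shown. The windows of *Bst2*, *B2m* and *Igtp* hold the same 10 letters, and those of *Ifit1* and *Ifit3* read the element from the other strand.

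**Figure D4:**
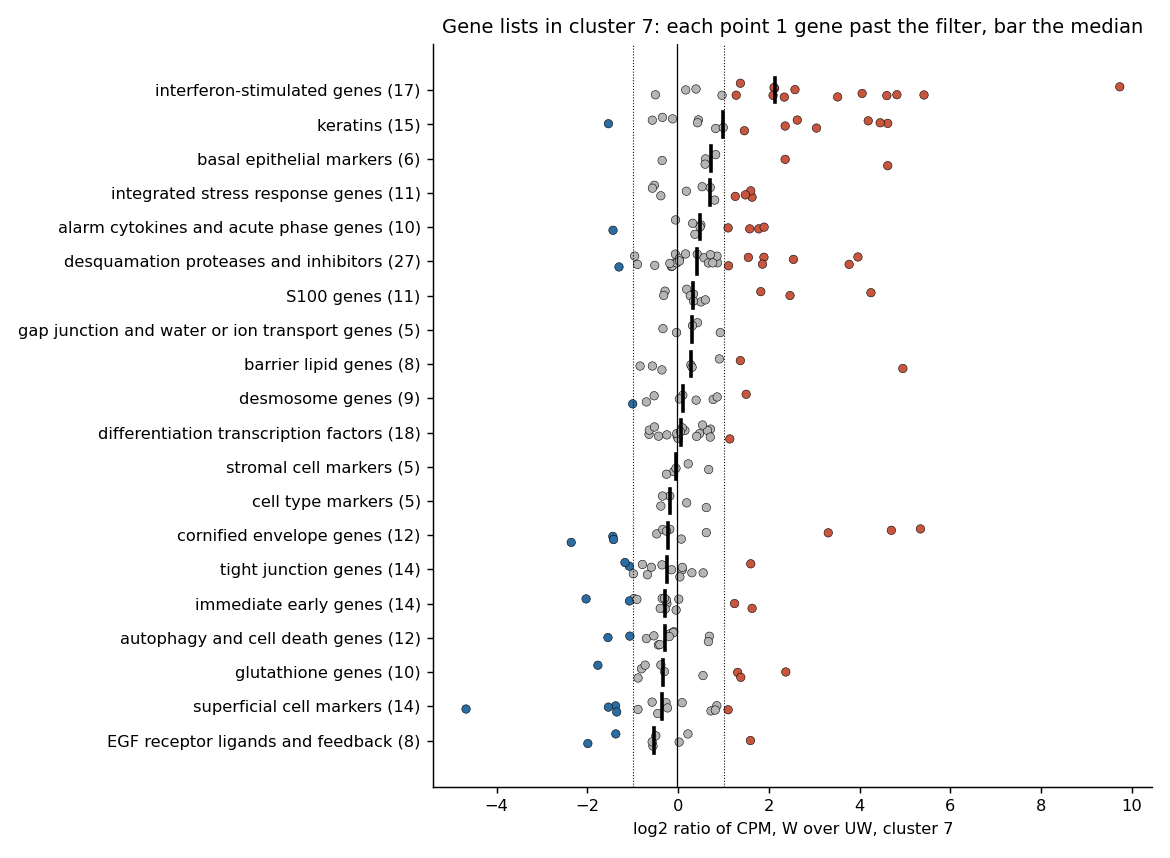
log2 ratios of CPM, W over UW, in cluster 7 for the genes past the filter of each list with at least 5 of them (number in brackets). Each point is 1 gene, thick bars are the medians, the thin line is the median of all genes (-0.03) and dotted lines are 2-fold. Interferon-stimulated genes have the highest median (2.13), and EGF receptor ligands and feedback genes the lowest (-0.52), while the medians of the S100, gap junction, barrier lipid, desmosome and transcription factor lists, all above 0 here, lie below 0 with TMM.

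Proteases and inhibitors of desquamation, which govern how superficial cells detach, were mostly within 2-fold, with a few large exceptions. Of 27 past the filter 7 were at least 2-fold higher, 1 lower and 19 within 2-fold, beside 12.3% higher and 7.43% lower of all genes. Within the larger groups 7 were higher and 3 lower, and with TMM 6 and 3. *Klk8* was at 11.4 CPM in UW and 177.9 CPM in W (3.96, 3.81 to 4.12), *Klk10* at 16.6 and 225.7 CPM (3.77, 3.64 to 3.9) and *Klk11* at 63.6 and 235.8 CPM. These 3 genes are kallikrein-related serine proteases. *Spink5*, the gene of the kallikrein inhibitor LEKTI, was also higher (14.9 and 86.4 CPM), as were the inhibitor genes *Serpinb5* (1.86), *Wfdc5* (1.55) and *Cstb* (1.11, but 0.73 with TMM and 0.91 within the larger groups). *Tmprss11g*, a membrane serine protease gene, was lower (436.9 and 176.8 CPM). Several members with high counts did not differ by 2-fold: *Prss22* was at 4106 and 4014 CPM, *Prss27* at 2788 and 1948 CPM, and *Prss8* at 703.6 and 642.2 CPM. The list's median was 0.42 on total counts and 0.04 with TMM.

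Of 14 superficial cell markers past the filter 4 were at least 2-fold lower and 1 higher, beside 7.43% and 12.3% of all genes, with a median of -0.36. With TMM 5 were lower and none higher, with a median of -0.74. Without the filter, 4 of 18 were lower and 4 higher, with a median of -0.07. *Upk1b* was at 3462 CPM in UW and 1331 CPM in W (-1.38, -1.40 to -1.36), and *Upk3b*, another uroplakin gene, at 45 and 1.76 CPM. *Lypd2* was at 16352 and 6391 CPM, but within the larger groups its log2 ratio was -0.75 and not 2-fold. The mucin *Muc4* (-0.45) and *Psca* (-0.89) were within 2-fold, but *Psca* was at -1.27 with TMM. *Krt78*, given above, was the fourth lower gene. *Sfn*, the gene of 14-3-3σ, was higher at 1.10, but at 0.72 with TMM and at 1.67 with free RNA subtracted.

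Junction genes were mostly within 2-fold. In the tight junction list 1 of 14 was higher and 2 lower, beside 12.3% and 7.43% of all genes and against 1 and 5 with TMM. *Cldn3*, a claudin gene, was at 52.5 CPM in UW and 159.1 CPM in W, the scaffold gene *Tjp1* at 466.8 and 221.0 CPM, and the adhesion gene *Cxadr* at 90.5 and 40.1 CPM. *Tjp1* was at -1.08 over the cluster and at -0.99 within the larger groups. *Cldn23* (0.04), *Cldn7* (0.55) and *Ocln* (-0.59) were within 2-fold. Of 9 desmosome genes *Dsg3* was higher (1.5) and *Dsc3* lower (-1.0). For *Dsc3* the free RNA estimate was 8.73 of its 15.9 CPM in W, and the ratio was -0.89 with free RNA subtracted.

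Barrier lipid genes had 2 higher members of 8 and none lower, beside 12.3% and 7.43% of all genes. Their median was 0.29, but -0.09 with TMM, where 1 was higher and 1 lower. *Fabp5*, the gene of an epidermal fatty acid binding protein, was at 26.9 CPM in UW and 832.8 CPM in W (4.95, 4.86 to 5.05), but it was detected in 77.4% of W cells at equal depth against 70.7% of stromal cells, and free RNA was estimated at 18.7 CPM in UW and 335.4 CPM in W. With these subtracted its ratio was 5.95. *Alox12e*, an epidermal lipoxygenase gene, was at 20.5 and 53.1 CPM over the cluster (1.37, and 0.99 with TMM). Its direction turned within the larger groups, where it was at 24.8 and 4.58 CPM (-2.44), since the W group 3 cells held 146.3 CPM of it. *Elovl1* (0.91), *Cers3* (-0.84) and *Sgms2* (-0.57), genes of long-chain lipid and sphingolipid synthesis, were within 2-fold.

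Among S100 genes 3 of 11 were at least 2-fold higher and none lower, beside 12.3% and 7.43% of all genes. Their median was 0.34 on total counts and turned to -0.04 with TMM. *S100a9* was at 151.2 CPM in UW and 834.8 CPM in W (2.47, 2.42 to 2.51), and its partner *S100a8* at 3.72 and 70.7 CPM. Both are known for their abundance in neutrophils. Free RNA accounted for an estimated 32.9 CPM of *S100a9*, and *S100a9* was already at 185.9 CPM in the larger group of UW cells. *S100a3* was the third, at 9.67 and 34.2 CPM, and it did not pass the filter within the larger groups. *S100a6*, at 28504 and 36003 CPM, and *S100a10*, at 10813 and 15298 CPM, were among the most abundant genes of the cluster and within 2-fold.

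Alarm cytokines and acute phase genes had 4 of 10 higher and 1 lower, beside 12.3% and 7.43% of all genes, with a median of 0.49. Without the filter 18 of 30 were higher and 2 lower, with a median of 1.68, where the median of all genes was 0.55. *Il1f6*, the gene of IL-36α, was at 52.4 CPM in UW and 179.2 CPM in W (1.77) and *Il1f8*, that of IL-36β, at 16.3 and 48.6 CPM. *Pglyrp4*, of the peptidoglycan recognition proteins, was at 54.9 and 117.8 CPM (1.10, and 0.72 with TMM). *Cxcl2* was higher as well, at 1.89. At equal depth 3.99% of W cells held a UMI of it against 6.0% of stromal cells, and with free RNA subtracted it was under the filter, with a ratio of 1.19. *Tnf* was lower, at 218.7 CPM (213.9 to 223.6) in UW and 80.8 CPM (75.8 to 86.0) in W. *Tnf* was highest in the larger, *Lce3a*-rich groups, with 267.5 and 107.8 CPM in the larger groups against 23.5 and 28.9 CPM in the group 3 cells. *Il1a* (0.50) and *Il1f9* (0.48) were within 2-fold, and *Il6*, *Nos2* and *Csf2* were at or near 0.

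Of the immune cell markers 3 passed the filter, *S100a8*, *S100a9* and *Itgam*, so that 2 were higher and 1 lower, beside 12.3% and 7.43% of all genes. The defining genes were below the filter, with few counts: *Ptprc* was at 0.248 CPM in UW and 0.586 CPM in W, *Tyrobp* at 0.193 and 8.87 CPM, *Fcer1g* at 0.138 and 4.86 CPM and *Lyz2* at 0.744 and 15.4 CPM. The free RNA estimates in W were 0.494, 3.51, 4.67 and 15.2 CPM. With free RNA subtracted, the ratios of *Ptprc* and *Lyz2* turned to -1.37 and -1.56, that of *Fcer1g* went from 5.14 to 0.55, and that of *Tyrobp* from 5.52 to 4.89. *S100a9* and *S100a8* had 2.44 and 4.00 there; the part of leukocyte RNA in their levels was not tested. The 11 genes summed to 623.2 CPM in UW and 1172 CPM in W, of which 4.23 and 81.6 CPM was the estimate for free RNA. No gene of the proliferation list (18 genes) or of the endothelial, melanocyte and red cell list (9 genes) passed the filter, and all 5 stromal markers that did were within 2-fold.

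*Chac1* belongs to the integrated stress response, a programme in which ATF4 and CHOP raise amino acid and glutathione genes. Of 11 list members past the filter 4 were at least 2-fold higher and none lower, beside 12.3% and 7.43% of all genes, with a median of 0.71. With TMM 3 were higher and the median was 0.33. Without the filter 25 of 37 were higher and 1 lower, with a median of 1.36, where the median of all genes was 0.55. *Atf3*, a stress-induced transcription factor gene, was at 71.9 CPM in UW and 222.3 CPM in W, *Slc38a2*, an amino acid transporter gene, at 53.9 and 129.0 CPM (0.88 with TMM), and *Herpud1*, of ER-associated degradation, at 16 and 44.5 CPM. *Nupr1* was higher too, at 15 and 45.3 CPM (1.60). Free RNA was estimated at 12.3 and 30.8 CPM of this, and with it subtracted *Nupr1* was under the filter, with a ratio of 2.46. *Ddit3*, which encodes CHOP (0.80), *Atf4* (0.53) and *Ppp1r15a* (-0.57) were within 2-fold. *Chac1* itself was slightly lower in W, by -0.38 (-0.42 to -0.35).

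The C/EBP-ATF response element, spelled TGATGNAA and read on both strands, was present in the promoters of 11 of 32 genes of this list (34.4%) and of 4.51% of all genes. Of the higher genes, *Herpud1*, *Atf3* and *Nupr1* held it and *Slc38a2* did not. The windows of *Chac1*, *Herpud1* and *Atf3* are printed, with the match in capitals.
Chac1 (chr2:119351038-119351067, plus strand): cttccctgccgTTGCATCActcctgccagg
Herpud1 (chr8:94386306-94386335, plus strand): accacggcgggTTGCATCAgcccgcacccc
Atf3 (chr1:191183425-191183454, minus strand): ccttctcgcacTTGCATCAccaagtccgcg
All 3 windows hold the same 8 letters, TTGCATCA, the element read from the other strand, while the promoters of *Lce3a*, *Krt23* and *S100a7a* held no match to this element.

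Glutathione and thioredoxin genes had 3 of 10 higher and 1 lower, beside 12.3% and 7.43% of all genes, and a median of -0.34. With TMM the balance turned, to 2 higher and 4 lower and a median of -0.72, while without the filter 11 of 26 were higher and 2 lower, with a median of 0.76. *Txn1*, the gene of thioredoxin, was at 71.5 CPM in UW and 370.1 CPM in W, with 142.6 CPM estimated as free RNA. *Gss* and *Mgst3* were higher by 1.31 and 1.38, but *Gss* was at 0.93 with TMM and *Mgst3* at 0.97 with DESeq2 size factors. *Gpx1*, of glutathione peroxidase, was at 453.4 CPM (446.5 to 460.4) in UW and 132.9 CPM (126.5 to 139.6) in W. *Gsto1*, a glutathione transferase gene and among the 10 most abundant genes, was at 45854 and 37174 CPM.

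Of 18 differentiation transcription factor genes 17 were within 2-fold, among them *Elf3* (2439 and 2386 CPM), *Klf4* (637.6 and 883.1 CPM), *Pax6*, the master regulator of eye identity (88.2 and 91.3 CPM), *Hopx* (-0.25) and *Grhl3* (0.71). *Bhlhe40* was the exception at 1.14, and at 0.76 with TMM, and of the 2 clock genes past the filter it was the one that was higher. Among immediate early genes 2 of 14 were higher and 2 lower, beside 12.3% and 7.43% of all genes and against 1 and 4 with TMM: *Jun* was at 771.3 and 1825 CPM (1.24, and 0.86 with TMM) and *Atf3* as above, *Egr1* at 519.9 and 127.2 CPM (-2.03) and *Ier2* at 1075 and 510.4 CPM. Such genes also respond to dissociation, and whether that differed between the libraries was not tested. Of 8 EGF receptor ligand and feedback genes *Areg* was higher (49.7 and 149.8 CPM) and *Ereg* and *Btc* lower (-1.38 and -1.99), beside the same shares of 12.3% and 7.43% of all genes, while *Hbegf*, another ligand gene, was at 1975 and 1344 CPM. *Map1lc3a* and *Wipi1* were lower among 12 autophagy and cell death genes (-1.07 and -1.55) and none was higher, beside 7.43% and 12.3% of all genes and against 4 lower of 13 with TMM. The 5 gap junction and transport genes past the filter, including *Aqp5* (6618 and 5244 CPM), were within 2-fold, and 2 of 6 basal markers, *Krt14* and *Krt15*, were higher.

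Among genes with a mean of at least 50 CPM, the 15 smallest ratios were of genes of various kinds. *Slc12a2*, the sodium-potassium-chloride cotransporter gene, was at 907.8 CPM in UW and 210.9 CPM in W (-2.11, -2.17 to -2.05), *Slc34a2*, a phosphate cotransporter gene, at 304.8 and 70.3 CPM, and *Clca4a* at 124.0 and 38.3 CPM. *Ndrg1*, a hypoxia- and differentiation-linked gene, was at 434.5 and 86.3 CPM (-2.33, -2.42 to -2.24). *Hspb1*, a small heat shock protein gene, was at 1780.5 and 536.6 CPM, and *Cirbp*, a cold-inducible RNA-binding protein gene, at 161.9 and 46.5 CPM. *Gm2a*, *Aplp2*, *Mylip*, *Ces2f*, *Rab17* and *E130218I03Rik* completed the list beside *Lce3f*, *Gpx1* and *Egr1*. All 15 stayed at least 2-fold lower within the larger groups.

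Cluster 6, the epithelial cluster most like it, was set beside cluster 7 for the same genes. Its log2 ratios were 8.97 for *Ifi27l2a*, 5.56 for *Ifitm3*, 5.11 for *Krt16*, 4.68 for *Cnfn*, -1.43 for *Upk1b* and -2.33 for *Egr1*. The clusters come from the same 2 libraries, so these values stand side by side and are not independent. For some genes the ratio was far larger in cluster 6. *Crct1* was 0.62 in cluster 7 and 3.53 in cluster 6 (6.98 and 80.9 CPM), *Lce3a* -0.19 and 1.32, *S100a7a* 0.19 and 2.26, *S100a9* 2.47 and 7.87, and *Il1f9* 0.48 and 3.05. In each case the level in cluster 7 of UW was higher than that of cluster 6 in UW. *Tnf* was -1.44 in cluster 7 and 2.17 in cluster 6, where it reached 17.5 CPM in W against 80.8 CPM in cluster 7. The difference between the clusters was not tested.

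**Figure D5:**
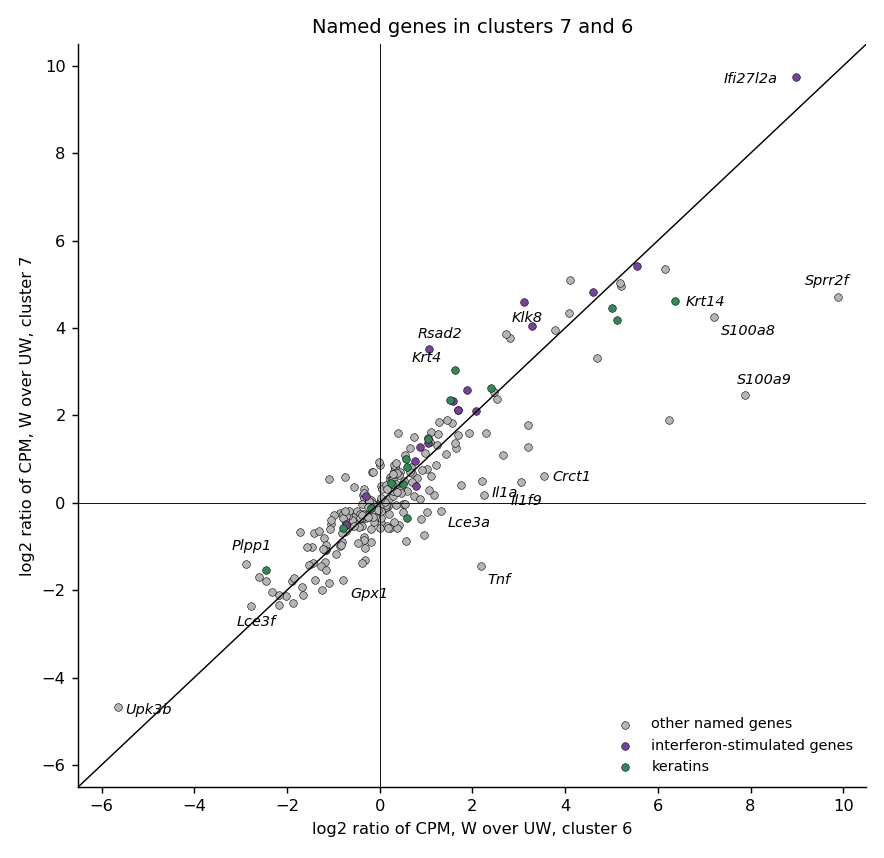
log2 ratios of CPM, W over UW, of the named genes past the filter in cluster 7 (y) against the same ratio in cluster 6 (x), with the line of equality, interferon-stimulated genes in purple and keratins in green. Ifi27l2a (9.73 against 8.97) and Ifitm3 (5.42 against 5.56) lie close to the line, while S100a9 (2.47 against 7.87), Crct1 (0.62 against 3.53) and Tnf (-1.44 against 2.17) lie below it.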

How the data were processed

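The authors dissociated the corneas, made 10x Genomics 3′ libraries and aligned the reads with Cell Ranger 3.1.0. The study's methods name the mm10 reference and another kit version than the labels, which name mm9; which of them applies could not be settled here. The deposited tables hold raw counts of unique molecular identifiers (UMIs) per gene and cell and, per cell, the authors' clusters from Seurat and doublet calls. They hold fewer cells than the study counted, each within the authors' limits of 500 to 8000 genes and 10% mitochondrial UMIs. Cells named doublets in any deposited column, 5 in UW and 16 in W of cluster 7, were kept, and leaving them out was an alternative.

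Counts were summed over the cells of the cluster in each library and divided by the sum of all 20198 genes (CPM), with exact Poisson intervals for levels and exact Clopper-Pearson intervals for shares, at 95%. The whole libraries held 367166822 (UW) and 289586482 (W) UMIs. Genes with a mean of at least 20 CPM and 20 counts were compared and called at 2-fold. No pseudocount entered a ratio. For shares of cells with a UMI, cells were thinned to 2000 UMIs, which left out 5 UW and 2 W cells. Free RNA was estimated from 6 stromal genes, which epithelial cells should lack. Named genes were the 5 markers, members of 25 gene lists, the 25 leading genes, and the 15 largest and smallest W over UW ratios at a mean of at least 50 CPM. The members and lists were chosen with earlier results of these data known. Gene positions are from GENCODE annotation of GRCm38 and promoters from RefSeq. The script was tested on simulated data. Python 3.11.15, numpy 2.4.6, pandas 2.3.3, scipy 1.17.1, R 4.3.3, edgeR 4.0.16 (TMM factors) and DESeq2 1.42.0 (size factors) were used, the last 2 for scaling only.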

Additional observations from a re-analysis of the deposited data

Results flagged for a closer look

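*Nfkbia*, the gene of the NF-κB inhibitor IκBα, was at least 2-fold lower in W in cluster 7, at 484.7 CPM in UW and 229.9 CPM in W (log2 ratio -1.08), and at least 2-fold higher in cluster 6, at 124.2 and 347.8 CPM (1.49). Of 2957 genes past the filter in both clusters it was the 1 gene at least 2-fold apart in opposite directions, and it was singled out after its values were seen. The difference between the clusters was not tested, since each condition was 1 library.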

How the results depend on the processing

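The share of cluster 7 was 11.2% in UW and 6.21% in W when taken of epithelial cells. With TMM factors 209 genes were at least 2-fold higher in W and 617 lower, with DESeq2 size factors 202 and 650, and without a filter beyond 1 count 6054 and 870, against 381 and 230. Of 22 lists with at least 3 genes past the filter, 13 had a median above 0, and 8 with either TMM or DESeq2 scaling. The share of cells with a UMI of *Lce3a* was 61.7% in UW and 61.6% in W without thinning and 47.2% and 51.5% at 5000 UMIs. *Alox12e* turned from 1.37 to -2.44 within the larger groups. Of 91 named genes called, 80 stayed called with TMM, 79 with DESeq2, 84 within the larger groups and 88 with free RNA subtracted; the last pair of settings were chosen after seeing the data. No paired analysis was possible because each condition was 1 library, and for the same reason no replicate could be left out. At 1 library of pooled mice a condition, intervals say nothing of the spread between mice.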
